A study of Branchiostoma belcheri with 2 samples.

Results

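The miRNAs miR-1, miR-133, miR-206, miR-208 and miR-499 were followed in gill RNA of the amphioxus Branchiostoma belcheri, an invertebrate chordate, by all 40 probes that carry these exact numbers among 1686 miRNA probes of a 1-colour array. Members were found by name, with any letter or arm suffix and from any species. By number, 17 probes were for miR-1, 17 for miR-133, 1 for miR-206, 3 for miR-208 and 2 for miR-499. Only 3 of the 40 were designed for amphioxus, 2 for B. belcheri (prefix bbe) and 1 for the Florida amphioxus Branchiostoma floridae (prefix bfl). The other 37 came from sea lamprey (pma, 11 probes), zebrafish (dre, 8), the frog Xenopus tropicalis (xtr, 8), the tunicates Ciona intestinalis (cin, 4) and Oikopleura dioica (odi, 3), a sea urchin (spu, 1) and an acorn worm (sko, 2).

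Gills came from adult animals injected into the cavum, with 15 µl of phosphate-buffered saline (PBS) for the control array and 15 µl of lipopolysaccharide (LPS, a bacterial surface lipid) at 1 mg/ml in PBS for the other. The LPS gills were taken 12 h after injection, and the control label states no time. With 1 array per group there is no replicate check and no p-value is given, and any difference belongs to these 2 arrays. The sources used here do not give the number of animals behind each array, or whether muscle next to the gill was trimmed away. In such bulk RNA, fewer cells of a type and less RNA per cell cannot be told apart.

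miRNAs are short RNAs that bind messenger RNAs, mostly through the seed (bases 2 to 8 from the 5′ end), and lower their translation or stability. A hairpin precursor yields a 5p and a 3p strand, of which one is usually kept and the other degraded. miR-1 is a muscle miRNA found across bilaterian animals, and in vertebrates miR-1 and miR-133 are made from shared transcripts in skeletal and heart muscle, from their 3p strands. miR-206 is a relative of miR-1 in vertebrate skeletal muscle, and miR-208 and miR-499 lie in introns of myosin heavy chain genes in mammals.

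The amphioxus probes are shown first because their arms decide what the array can say of amphioxus muscle miRNAs. Each is followed by the closest probe of the same family from another species among those whose names state an arm. Seeds are in capitals, and all sequences run 5′ to 3′ as listed in the array files.
bbe-miR-1-3p: aAGUACUUcuuuacuaucccau
sko-miR-1-5p: aCGUACUUcuuuauaauuccaua
bbe-miR-133-3p: aGCUGGUAaauuggaaccaaau
dre-miR-133a-5p: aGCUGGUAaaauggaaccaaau
bfl-miR-133: uGGUCCCCuucaaccagcugua
cin-miR-133-3p: uUGGUCCCcuucaaccagcug

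Both B. belcheri probes are named 3p but carry the sequence of the 5p strand. The bbe-miR-133-3p probe was 1 edit (base change, insertion or deletion) from dre-miR-133a-5p, the substitution A11U counted from the 5′ end with the zebrafish base first, and 12 edits from its closest 3p probe. The bbe-miR-1-3p probe was 5 edits from sko-miR-1-5p and 13 edits from its closest 3p probe. It was 6 edits from the reverse complement of zebrafish miR-1, the strand with which it would pair in a hairpin. The bfl-miR-133 probe, whose name states no arm, lay 3 edits from cin-miR-133-3p and 11 from its closest 5p probe, which puts it on the 3p strand. Its sequence begins 1 base after that of the sea squirt probe, which moves its seed by 1 base. None of the amphioxus probes among the 40 covers the 3p strand of miR-1, the strand that accumulates in vertebrate muscle.

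A probe counted as detected when the mean intensity of its 2 repeat spots exceeded a threshold, the 95th percentile over that array's 304 empty spots, which was 121.9 for the control array and 143.5 for the LPS array. On the control array bbe-miR-1-3p read 121 and 122, at the threshold, and on the LPS array 76.5 and 84.6. Its control mean of 121.5 fell just short, so it was detected on neither array. The repeat spots of bbe-miR-133-3p gave 118 and 106 on the control array and 110.4 and 94.3 on the LPS array, all below the thresholds. Only bfl-miR-133 was detected, at 136 and 149 on the control array, whereas its 132 and 125 on the LPS array lay below that array's higher threshold. In the authors' deposited table, 1 processed value per probe and array, bfl-miR-133 was at 23.3 and 32.9, bbe-miR-133-3p at 3.97 and 3.63 and bbe-miR-1-3p at 7.82 and the table's floor of 0.01, control first.

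Among all 40 members, 21 were detected in the control gill (52.5%, against 38.4% of all 1686 probes) and 6 in the LPS gill, where 20.1% of all probes were. Both arrays detected 5 of them, the control array alone 16, the LPS array alone 1 and neither array 18. By the closest probe with a stated arm, 11 members were counted as 5p type, the 2 B. belcheri probes among them. None of the 11 was detected on either array (control means 99.1 to 121.5, LPS means 80.6 to 122.1). All detected members were among the 29 counted as 3p type, with 21 of these in control and 6 in LPS. The 29 include the 2 miR-499 probes, whose arm is not settled because no miR-499 probe states one. Against miR-208 probes, dre-miR-499 lay 9 edits from the 3p and 12 from the 5p probe, and xtr-miR-499 10 and 13.

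miR-1, which holds back growth and promotes differentiation of muscle cells in vertebrates, was, with miR-206, the only family of the 5 with probes above the highest of the empty spots in the control gill. Of its 12 probes of the 3p type, 7 were detected on the control array, and all 7 means also exceeded that empty spot (202.7). That spot stood apart from the other empty spots, of which the next highest read 129.1. The zebrafish probe dre-miR-1 read 609 and 658 on the control array and 239 and 319.9 on the LPS array. The lamprey probe pma-miR-1c-3p read 757 and 739.7 against 292 and 319, and the frog probe xtr-miR-1a 703 and 642 against 250.2 and 209. These 3 probes share their first 21 bases, so 1 RNA may give the signal on each of them, and they are not separate measurements of miR-1. They were the only miR-1 or miR-206 probes with both repeat spots above the LPS threshold, although none exceeded the brightest of the empty spots on that array (397.6). The next brightest empty spot there read 256.1. The LPS means of dre-miR-1 (279.6) and pma-miR-1c-3p (305.1) were above it, and that of xtr-miR-1a (229.8) was below it.

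The 3p-type probes of miR-1 and miR-206 differ at few bases, which lets detection be set beside sequence. The ones the comparison turns on are printed with the bases that differ from dre-miR-1 in capitals.
dre-miR-1: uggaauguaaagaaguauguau
pma-miR-1c-3p: uggaauguaaagaaguauguaC
xtr-miR-1a: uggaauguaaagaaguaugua
cin-miR-1-3p: uggaauguaaagaaguaugCGu
odi-miR-1c: uggaauguaaagaaguauguGA
pma-miR-1b: uggaauguaaagaaguaugGGu
pma-miR-1a-3p: uggaauguaaagaaguaCguUG
sko-miR-1-3p: uggaauguaaUgaaguauguau
xtr-miR-1b: uggaauguUaagaaguaugua
odi-miR-1b: uggaauguUaagaaguGugACu
odi-miR-1a: uggaauguUGagaaguGugAUu
dre-miR-206: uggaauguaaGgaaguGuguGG

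All of these 12 carry the seed GGAAUGU, and 8 were detected on the control array. The 7 that share at least their first 17 bases with dre-miR-1 were all detected there. Of the 6 that differ earlier (pma-miR-1d, 7 edits from dre-miR-1, is the sixth), 1 was detected, dre-miR-206. The acorn worm probe sko-miR-1-3p differs by A11U alone and read 131 and 113 on the control array, a mean of 121.8 just below the threshold. With A9U as its only substitution, and 1 base shorter, xtr-miR-1b read 112 and 100.2 and was detected on neither array. In odi-miR-1a and odi-miR-1b the control means were 102.4 and 101.5, also below the threshold. This grouping by position was chosen after the values were seen and is a description of probes that share most of their sequence.

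The 4 probes that differ from dre-miR-1 at 2 or 3 bases, all from base 18 on, were detected on the control array but not after LPS, unlike pma-miR-1c-3p, whose only substitution is U22C. The Ciona probe cin-miR-1-3p (U20C, A21G) read 678 and 594 on the control array and 122 and 135 on the LPS array, with no overlap of repeat spots. The lamprey probe pma-miR-1a-3p (U18C, A21U, U22G) went from 286 and 243 to 84.6 and 122, and pma-miR-1b (U20G, A21G) from 226 and 189 to 82.0 and 97.6. In odi-miR-1c (A21G, U22A) the values were 229 and 184 against 86.9 and 118.

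Differences between the arrays were taken on normalized log2 intensity, LPS minus control, after quantile normalization, with the SE over repeat spots, which is technical. A probe was called at 2-fold or more where it was detected on at least 1 array and its repeat spots did not overlap between arrays. No member was called higher and 3 of 22 were called lower, where 10.5% of all 684 detected probes were higher and 10.5% lower. Among them was cin-miR-1-3p (-1.71 ± 0.16). The lamprey probes pma-miR-1b (-1.02 ± 0.17) and pma-miR-1a-3p (-1.11 ± 0.32) were the others. Since all 3 were below the LPS threshold, only a lower bound can be given, and it holds within the main normalization alone. There the bound was at least 2.95-fold lower for cin-miR-1-3p, at least 1.43-fold for pma-miR-1a-3p and at least 1.15-fold for pma-miR-1b. Other settings gave both smaller and larger differences, and for pma-miR-1b one of the other sign. Over 10 of them cin-miR-1-3p ran from -2.29 to -1.04, pma-miR-1a-3p from -1.54 to -0.09 and pma-miR-1b from -1.50 to 0.13. The fourth probe of this kind, odi-miR-1c, stood at -0.80 ± 0.29 and was not called.

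The 3 probes with the 21 shared bases showed no such difference in the main normalization. There dre-miR-1 stood at 0.01 ± 0.35, pma-miR-1c-3p at 0.06 ± 0.11 and xtr-miR-1a at -0.46 ± 0.23. Over the 10 other settings xtr-miR-1a was below 0 in each, whereas dre-miR-1 and pma-miR-1c-3p lay on either side of 0. With no normalization between the arrays all 3 were called lower, at -1.14, -1.26 and -1.51, and in the deposited table they were at 0.12, -0.05 and -0.29. The Ciona probe was below 0 in each of the 10 other settings tried (-2.29 to -1.04). As its LPS value was not above the threshold, these are differences to a background-level value and not sizes of a change. The same holds for the gap to the mean of the 3 probes with the 21 shared bases. For cin-miR-1-3p this gap was between -1.89 and -0.95 over all settings. It crossed 0 for pma-miR-1a-3p (-1.39 to 0.04), pma-miR-1b (-1.36 to 0.26), odi-miR-1c (-0.999 to 0.464) and dre-miR-206 (-0.24 to 0.82). With median scaling the log2 difference of pma-miR-1a-3p itself was -0.09 and that of pma-miR-1b 0.13. With no normalization between the arrays the gap was -0.98 for cin-miR-1-3p. It was 0.04 for pma-miR-1a-3p, 0.26 for pma-miR-1b, 0.46 for odi-miR-1c and 0.82 for dre-miR-206. The maker's calibration probes were compared within each array, before normalization. On probes whose names mark a mismatch (MM or 3M), signal relative to the matched partner had a median of 9.02% in control and 1.19% in LPS, lower on the LPS array in 23 of 25 pairs. The part of this in the miR-1 differences was not tested.

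miR-206 had a single probe, dre-miR-206, which carries the miR-1 seed with A11G, A17G, A21G and U22G against dre-miR-1. It read 218 and 224 on the control array, above the brightest of the empty spots, and 143.2 and 136.8 on the LPS array, with a mean just under the threshold. The normalized difference was -0.23 ± 0.05 and did not pass 2-fold.

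miR-133, which in vertebrates promotes proliferation of muscle precursors, gave a weak signal on every 3p-type probe of the control array. All 12 were detected there, with means between 124.1 and 168.4, but none exceeded the highest of the empty spots (202.7). All other empty spots of that array read 129.1 or less, and 10 of the 12 means exceeded their 99th percentile (128.1). At the ends of this range, dre-miR-133c read 166 and 171 and xtr-miR-133a had a mean of 124.1. The shared sequence has 3 starts among these probes, each given by 1 example with its seed in capitals.
dre-miR-133a-3p: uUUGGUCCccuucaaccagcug
xtr-miR-133a: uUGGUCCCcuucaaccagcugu
bfl-miR-133: uGGUCCCCuucaaccagcugua

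The letters UGGUCCC begin at base 3 in 5 of the 12 probes, at base 2 in 6 and at base 1 in the B. floridae probe, so the seeds of these probes differ by the frame of the same sequence. All 3 frames were detected on the control array, in 5 of 5, 6 of 6 and 1 of 1 probes. Since the probes overlap over nearly their whole length, the data do not tell which start the amphioxus RNA has.

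On the LPS array 2 of the 12 were detected, each through 1 repeat spot. The frog probe xtr-miR-133b read 109 and 209, and xtr-miR-133d read 162 and 126. The same holds for odi-miR-1b, detected on the LPS array alone from spots of 91.8 and 212. The miR-133 probes had a median difference of 0.03 and none was called. Since 10 of the 12 were not above the LPS threshold, their differences have no order, bfl-miR-133 (0.12 ± 0.09, with overlapping repeat spots) included. The absence of calls rests on the scaling, since with median scaling 11 of the 12 were called higher (all but dre-miR-133c), when 335 of the 684 detected probes were called higher and 54 lower, against 72 and 72 in the main normalization.

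miR-208 and miR-499, which mark heart and slow muscle in mammals, gave 1 detected probe among 5. The lamprey probe pma-miR-208-3p read 154 and 138 on the control array and 77.7 and 102.9 on the LPS array. It was detected on the control array only. Its mean of 146.1 lay below the brightest of the empty spots (202.7) but above the next (129.1). Its difference (-0.57 ± 0.22) was not called. The frog probe xtr-miR-208 read 99.8 and 104.1 on the control array, and the opposite-arm probe pma-miR-208-5p 125 and 113, both below the threshold in the mean. Neither miR-499 probe was detected, with control values of 118 and 103 for dre-miR-499 and 110.0 and 111 for xtr-miR-499.

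Over the 22 members detected on at least 1 array the median log2 difference was -0.06, against -0.10 for all 684 detected probes. Both medians moved together with the scaling, to 1.03 and 0.99 with median scaling and to 0.74 and 0.70 with scaling on calibration spots. The LPS array had fewer probes above background throughout and an uneven background. Its empty spots had a median of 80.9 in the first 32 rows and 111.1 in the last 32, against 112.0 and 103.2 on the control array. The lamprey miR-1 probes and bbe-miR-1-3p lie in the first 32 rows and cin-miR-1-3p in the last 32, and the part of position in their differences was not tested. With a local level subtracted from each spot, an alternative added after the data were seen, sko-miR-1-3p joined the control members to make 22, and dre-miR-206 the LPS members to make 7.

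Lists for other muscle-related miRNAs and for other tissues put the members' detection in context. Of 67 probes for further miRNAs with known roles in vertebrate muscle cells (such as miR-29, miR-143, miR-145 and miR-214), 24 were detected in control and 15 in LPS. These shares, 35.8% and 22.4%, were near those of all probes (38.4% and 20.1%). Of the 28 detected on at least 1 array, 5 were called higher, 2 lower and 21 not called, where 10.5% of all detected probes were called each way. miR-29, which limits collagen production in vertebrates, supplied 13 of the 24 and 6 of the 7 calls. For miR-143 and miR-145, known from vertebrate smooth muscle, 1 of 4 probes each was detected on the control array, dre-miR-143 at a mean of 126.0 and dre-miR-145 at 127.2. Both means were near the threshold and below the 99th percentile of the empty spots (128.1). miR-214 was detected on both arrays by its single probe, dre-miR-214, at 608 and 261. Its difference was -0.06 ± 0.17 in the main normalization, 0.01 in the deposited table and -1.17 with no normalization between the arrays.

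Among the lists for other tissues, epithelial miRNAs (the miR-200 family and its relatives) had 18 of 23 probes detected in control (78.3%) and 13 in LPS. Endoderm miRNAs had 24 of 33 (72.7%) and 18, neural and sensory miRNAs 40 of 67 (59.7%) and 22, and blood miRNAs 1 of 11 and 1 of 11. Probes above the highest of the empty spots of the control array made up 20.0% of the muscle members, 69.6% of the epithelial, 54.5% of the endoderm, 26.9% of the neural and 19.2% of all probes. On the LPS array, against its own highest empty spot, the share was 0% of the muscle members, 52.2% of the epithelial, 24.2% of the endoderm, 8.96% of the neural and 11.0% of all probes. The lists differ in how many of their probes were designed for amphioxus, whose 260 probes were detected in 78.1% of cases on the control array, so these shares do not rank tissues.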

How the data were processed

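Per the labels' protocols, total RNA was poly(A)-tailed and ligated to a Cy3 tag. Each deposited scanner file gives, per the file headers, the median Cy3 intensity of 3968 spots, with no background column. The sources used here give neither scanner nor extraction software. The deposited value table holds 1 processed intensity per probe; its column medians are 6.88 and 3.42, and its background correction, scaling and centring are unknown. It ranked detected probes like the spot intensities (Spearman 0.985 and 0.978, across probes).

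Background was modelled by normexp (offset 50) in limma 3.58.1 under R 4.3.3. Values were converted to log2, quantile-normalized over the 3372 miRNA spots and averaged over repeat spots. The steps were tested on simulated data in which only bright probes changed, so changes near the detection threshold were not covered. The deposited table was compared on log2 (value + 50). Arms were read from edit distances to probes of the same family named 5p or 3p (for miR-206 those of miR-1, for miR-499 those of miR-208). For miR-499 the distances to another family do not settle the arm. Amphioxus members and members detected on at least 1 array were named. Members and lists were chosen with earlier results of these data known. A lower bound of a fold used, on the LPS side, the probe's own value or that of the dimmest detected probe, whichever was higher. Alternatives covered detection thresholds, background correction, scaling, repeat spots and fold thresholds.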

Additional observations from a re-analysis of the deposited data

How the results depend on the processing

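Detection on the control array gave 21 members, 19 at the 99th percentile, 8 above the highest empty spot and 40 above the floor of the deposited table. On the LPS array it gave 6, with 2 at the 99th percentile and 0 above the highest empty spot. There, 3 had every repeat spot above the threshold and 28 were above the deposited floor. With 0 members called higher in the main setting, 12 were with median scaling, 7 with calibration spots and 2 without repeat spot 1 (odi-miR-1b and xtr-miR-133b). Of 3 called lower, 1 was with normexp offset 200, no background correction, median scaling, loess, calibration spots, a 3-fold threshold and without repeat spot 1, 6 with no normalization and 0 among probes detected on both arrays; cin-miR-1-3p was the 1 in each of those cases. The median difference was 1.03 with median scaling and 0.74 with calibration spots. The difference of pma-miR-1b turned to 0.13 with median scaling. Of 240 differences of named probes over 10 settings, 58 moved by more than the repeat-spot SD (0.44 log2 units) and 1, that of pma-miR-1b, changed sign at a called probe. No paired analysis was possible because each group had 1 array. Signal near the empty spots limits every miR-133, miR-208 and LPS-array value. A single repeat spot decides the LPS-array detection of odi-miR-1b, xtr-miR-133b and xtr-miR-133d.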
